A study of Mus musculus with 6 samples.

Results

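The genes described here are 10 genes of blood vessel endothelium, chosen by name: the angiopoietin ligands Angpt1 and Angpt2, their receptors Tek (Tie2) and Tie1, the transcription factors Sox17 and Sox18, the Notch ligand Dll4 and receptor Notch1, and the surface proteins Cdh5 (VE-cadherin) and Emcn (endomucin). They are 10 of 10204 genes tested. RNA of whole hearts from male C57Bl6 mice was hybridised to Illumina bead arrays: 3 arrays held hearts 72 h after ischemia-reperfusion (IR) and 3 held uninjured hearts. The IR mice had the left anterior descending coronary artery tied off for 90 min and then reopened for 3 days. The labels describe the uninjured mice as free of any surgery, while the column names of the deposited signals call the same arrays sham, and the sources used here do not settle which holds. No genetic change or drug treatment distinguishes the groups in the labels. Whether the arrays of a group came from different mice is not stated, and the p-values reflect array-to-array spread that may be technical.

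Angiopoietins act on the receptor tyrosine kinase Tek of endothelial cells. Angpt1, secreted mainly by cells around the vessel, activates Tek and keeps vessels quiet and tight, whereas Angpt2, released by activated endothelium, often opposes it. Tie1 is a related receptor that binds neither ligand strongly and modulates Tek. Dll4 on one endothelial cell activates Notch1 on its neighbour, which restrains sprouting and favours arterial character. Sox17 and Sox18 are SoxF transcription factors of endothelium, Cdh5 is the cadherin of its adherens junctions, and Emcn is a sialomucin of capillaries and veins.

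The platform annotated 16 probes to the 10 genes, and 13 of them were kept, that is detected at a p-value under 0.05 on at least 3 of the 6 arrays. Every one of the 10 genes had a kept probe, and all but Angpt2, Sox17 and Cdh5 had a single one. Between 39.8% and 42.5% of probes were detected on the IR arrays and between 35.1% and 39.4% on the uninjured arrays. The 75th percentile of raw intensity lay between 135 and 138 on the IR arrays and between 109 and 111 on the uninjured arrays, and results are therefore given under more than 1 scaling. Values are given after background correction and quantile normalization, on the log2 scale of intensity plus 16, and again with each array set to a common median of all probes. The common median of all probes gave a median log2 difference of 0.52 over all genes, whereas quantile normalization gave 0.05. In bulk RNA, fewer cells of a type and less RNA per cell cannot be told apart.

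After quantile normalization 3 of the 10 genes were higher after IR (Angpt2, Sox18 and Cdh5) and 5 were lower (Angpt1, Tek, Tie1, Sox17 and Notch1) at an adjusted p under 0.05 in limma, while Dll4 and Emcn were not called. Over all genes 38.9% were called higher, 34.1% lower and 73% in either direction, so 8 calls in 10 genes is a share near that background. The groups did not overlap for these 8 genes, and for 76.7% of all genes. Of the kept probes, 36.5% were called higher, 33.1% lower and 69.6% in either direction. Under the common median of all probes 4 genes were called higher (Angpt2, Sox18, Cdh5 and Emcn) and 1 lower (Angpt1), against 59.3% higher, 17.2% lower and 76.5% in either direction over all genes. Under a common median of the kept probes 2 were called higher (Angpt2 and Sox18) and 6 lower (Angpt1, Tek, Tie1, Sox17, Notch1 and Dll4), against 32.1% higher, 43.4% lower and 75.5% in either direction. Angpt2 and Sox18 were called higher and Angpt1 lower under all 3 scalings. Cdh5 was called higher except under the kept-probe scaling, where its adjusted p was 0.0530.

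**Figure D1:**
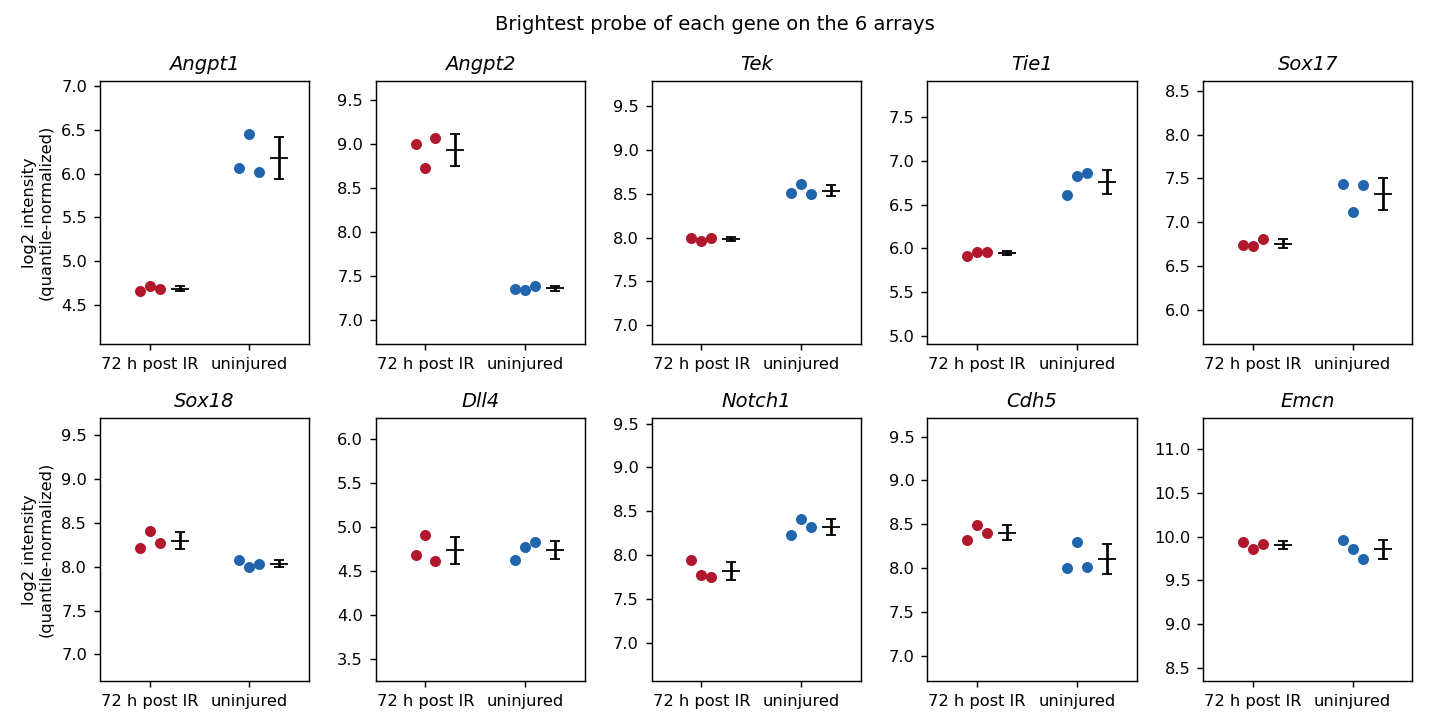
Quantile-normalized log2 intensity (vertical axes, each spanning the same range of log2 units) of the brightest probe of each of the 10 genes on 3 arrays 72 h post IR (red) and 3 uninjured arrays (blue), with the mean and SD in black. Angpt2 and Angpt1 part the groups most widely and in opposite directions, and the groups overlap for Dll4 and Emcn.

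Promoters were available from RefSeq (build GRCm38.p6) for 5 of the 10 genes: Tek, Tie1, Emcn, Notch1 and Dll4. Each spans 250 bases before to 50 after the gene's start. They were searched on both strands for AACAAT, a SOX-type motif, GTGGGAA, the core motif of the Notch effector RBPJ, and CAGGAAG, an ETS-type motif. No motif overlapped another. The 3 promoters with a match are shown, because they belong to the paralogous receptors Tek and Tie1, which were lower together after quantile normalization, and to Emcn, which was not called. Capitals mark the motif matches, as read 5′ to 3′ on the gene's strand.
Tek, chr4:94739039-94739338, plus strand: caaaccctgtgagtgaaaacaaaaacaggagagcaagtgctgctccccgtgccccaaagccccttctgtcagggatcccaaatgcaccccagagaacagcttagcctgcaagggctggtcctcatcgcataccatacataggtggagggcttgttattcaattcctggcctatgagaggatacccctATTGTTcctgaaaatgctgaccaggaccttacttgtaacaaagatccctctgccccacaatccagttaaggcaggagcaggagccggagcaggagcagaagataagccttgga
Tie1, chr4:118489800-118490099, minus strand: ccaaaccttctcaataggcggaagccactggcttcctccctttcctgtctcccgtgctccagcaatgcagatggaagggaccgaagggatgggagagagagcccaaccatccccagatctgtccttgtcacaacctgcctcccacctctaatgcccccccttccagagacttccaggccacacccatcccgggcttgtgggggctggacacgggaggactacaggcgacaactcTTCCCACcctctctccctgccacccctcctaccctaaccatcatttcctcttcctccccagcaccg
Emcn, chr3:137340828-137341127, plus strand: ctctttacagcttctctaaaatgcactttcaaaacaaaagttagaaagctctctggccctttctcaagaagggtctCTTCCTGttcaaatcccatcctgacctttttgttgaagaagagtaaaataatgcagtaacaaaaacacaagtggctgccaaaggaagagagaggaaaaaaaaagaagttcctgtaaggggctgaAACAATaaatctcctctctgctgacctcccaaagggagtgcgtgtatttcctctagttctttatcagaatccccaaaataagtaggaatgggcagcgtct

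The Tek promoter held the SOX-type motif on the opposite strand, 63 bases before the start, and the Emcn promoter held it on the same strand, 50 bases before. The Tie1 promoter held the RBPJ motif on the opposite strand, 16 bases before the start. Emcn also held the ETS-type motif on the opposite strand, 174 bases before the start. Of all 32851 promoters of this length in the table, 10.7% held the SOX-type, 6.38% the RBPJ and 13.3% the ETS-type motif. These letters were not in the Notch1 and Dll4 windows.

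The ligands moved in opposite directions. Angpt2 had raw intensities of 683, 583 and 712 on IR arrays 106, 107 and 886, against 189, 195 and 197 on uninjured arrays 109, 110 and 904. All 3 IR arrays were far above every uninjured array, and the uninjured arrays lay close together. Normalized, Angpt2 averaged 8.94 ± 0.18 after IR and 7.36 ± 0.03 in uninjured hearts (log2, SD, n = 3 each). It rose 2.99-fold, with a log2 difference of 1.58 ± 0.10 (SE, adjusted p = 5.64e-06), and by 2.18 ± 0.13 under the common median of all probes (adjusted p = 5.65e-09).

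A second, dimmer Angpt2 probe had 136, 104 and 117 on the IR arrays, against 83.5, 87.0 and 83.5 on the uninjured arrays, of which 1 detected it. This probe gave a log2 difference of 0.85 ± 0.21 (adjusted p = 0.00882) after quantile normalization and 1.04 ± 0.20 (adjusted p = 0.000346) under the common median of all probes. Under the common median of the kept probes its value was 0.38 (adjusted p = 0.153), so the dimmer probe ran the same way as the brighter one but was not called there.

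Angpt1 had raw intensities of 95.0, 98.6 and 96.4 on the IR arrays, against 117, 133 and 117 on the uninjured arrays. The groups did not overlap, and the IR values sat near background, with detection on 2 of 3 IR arrays and on 3 of 3 uninjured arrays. Angpt1 averaged 4.69 ± 0.03 after IR and 6.18 ± 0.24 in uninjured hearts (log2, SD, n = 3 each). It was 2.80-fold lower, a log2 difference of -1.49 ± 0.12 (SE, adjusted p = 2.11e-05), and -1.08 ± 0.16 under the common median of all probes (adjusted p = 4.38e-05). Without background correction the value was -0.60. The other Angpt1 probes failed the filter: one was detected on 0 of 6 arrays, and one on 1 uninjured array, so the fall of Angpt1 rests on a single probe.

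Within each array the log2 value of Angpt2 minus that of Angpt1 does not depend on a common scaling factor. This difference was 3.07 higher on the IR arrays than on the uninjured arrays, an 8.37-fold change in their ratio, and the groups did not overlap. It was 3.26 under both median scalings and 1.87 without background correction. The exact two-sided permutation test gave p = 0.1, the smallest that 3 against 3 arrays allow (adjusted p = 0.129 over the 9 pairs compared). The difference shows unequal change of the ligands and no level of one against the other.

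The receptors depended on the scaling. Tek had raw intensities of 377, 374 and 380 on the IR arrays, against 343, 385 and 353 on the uninjured arrays, which overlap. The quantile-normalized values of Tek were lower after IR and did not overlap, at 7.98 ± 0.02 after IR and 8.54 ± 0.07 in uninjured hearts (log2, SD, n = 3 each). Tek thus fell by 0.56 ± 0.07 on the log2 scale after quantile normalization (SE, adjusted p = 0.000248), but its value turned to 0.04 ± 0.13 under the common median of all probes (adjusted p = 0.787). It was 1.47-fold lower in the first case. The median log2 difference over all genes was 0.05 in the first case and 0.52 in the second, and Tek lay below it in both. So did Tie1, Sox17 and Notch1, described below.

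Tie1 had raw intensities of 142, 147 and 145 on the IR arrays, against 139, 154 and 156 on the uninjured arrays. It averaged 5.95 ± 0.02 after IR and 6.76 ± 0.14 in uninjured hearts after quantile normalization (log2, SD, n = 3 each), with no overlap. Its log2 difference was -0.81 ± 0.09 (SE, adjusted p = 9.77e-05), or 1.76-fold lower, and -0.17 ± 0.13 under the common median of all probes, where it was not called (adjusted p = 0.245). Within arrays, Tie1 minus Tek was lower by 0.26 on the log2 scale after IR (exact permutation p = 0.1), with a value of 0.0094 without background correction. Angpt2 minus Tek was 2.13 higher within arrays after IR and 2.14 under both median scalings (exact permutation p = 0.1), a 4.39-fold change in that ratio.

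**Figure D2:**
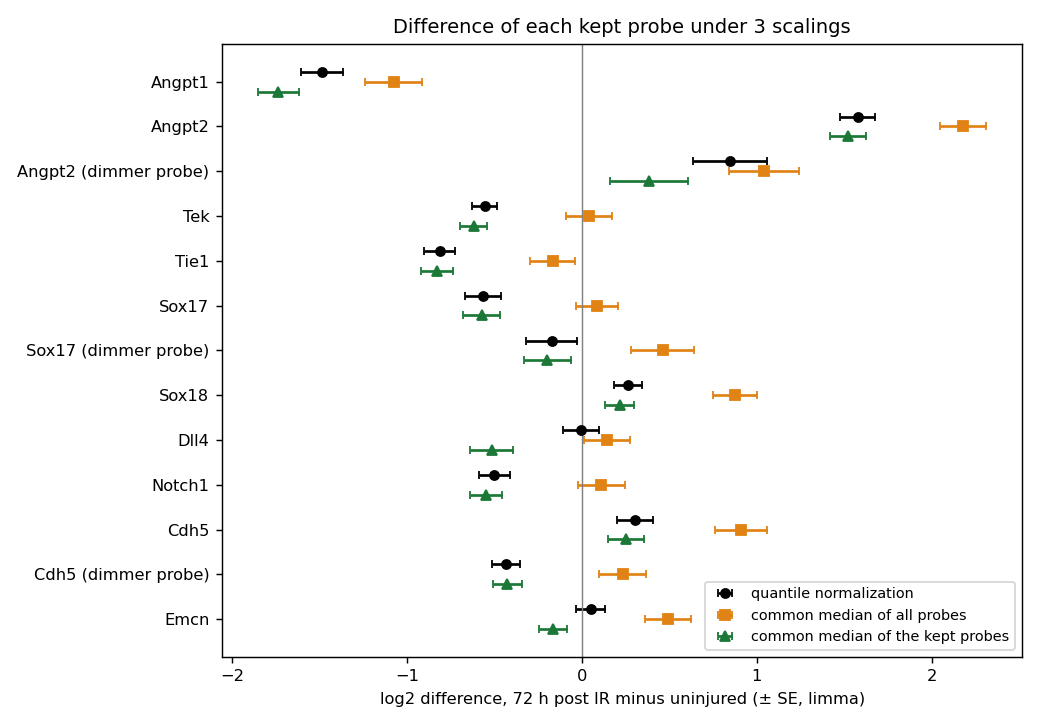
Log2 difference, 72 h post IR minus uninjured (horizontal axis, mean ± SE from limma, 3 arrays a group), of each kept probe of the 10 genes after quantile normalization (black), alignment of all-probe medians (orange) and alignment of kept-probe medians (green). Angpt1 stays left of 0 and Angpt2 right of it in every scaling, while every other gene except Tie1 and Sox18 has a probe that changes sides.

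The SoxF transcription factors differed from each other. Sox18 had raw intensities of 429, 486 and 447 on the IR arrays, against 271, 271 and 273 on the uninjured arrays. The uninjured arrays were almost identical and every IR array was higher. Sox18 averaged 8.30 ± 0.10 after IR and 8.03 ± 0.04 in uninjured hearts (log2, SD, n = 3 each), a rise of 0.26 ± 0.08 or 1.20-fold (SE, adjusted p = 0.0185), and of 0.88 ± 0.12 under the common median of all probes (adjusted p = 2.33e-05). The call was lost without IR array 107, at 0.21 (adjusted p = 0.0612).

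Sox17 had raw intensities of 200, 203 and 209 on the IR arrays, against 196, 175 and 200 on the uninjured arrays, and these ranges overlap. Its normalized mean was 6.76 ± 0.05 after IR and 7.32 ± 0.18 in uninjured hearts (log2, SD, n = 3 each). Sox17 fell by 0.57 ± 0.10 on the log2 scale after quantile normalization (SE, adjusted p = 0.00180), and turned to 0.09 ± 0.12 under the common median of all probes (adjusted p = 0.524). A dimmer Sox17 probe had a log2 difference of -0.17 ± 0.15 (adjusted p = 0.320) and, under the common median of all probes, a rise of 0.46 ± 0.18 (adjusted p = 0.0331). The call for Sox17 therefore depended on both the probe and the scaling.

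Among the Notch genes, Dll4 was near background. Its brighter probe had raw intensities of 95.6, 104 and 94.5 on the IR arrays, all of which detected it, against 88.3, 88.2 and 92.3 on the uninjured arrays, of which 1 detected it. The normalized values overlapped, at 4.74 ± 0.15 after IR and 4.74 ± 0.10 in uninjured hearts (log2, SD, n = 3 each), with a log2 difference of -0.01 ± 0.10 (SE, adjusted p = 0.963). The value turned to 0.14 under the common median of all probes (adjusted p = 0.335) and was -0.52 under that of the kept probes (adjusted p = 0.00524). The dimmer Dll4 probe was detected on 0 of 6 arrays.

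Notch1 had raw intensities of 366, 340 and 332 on the IR arrays, against 294, 341 and 319 on the uninjured arrays. These ranges overlap, and Notch1 followed Tek in its dependence on scaling. It averaged 7.82 ± 0.11 after IR and 8.32 ± 0.09 in uninjured hearts (log2, SD, n = 3 each), a fall of 0.50 ± 0.09 on the log2 scale (SE, adjusted p = 0.00141) or 1.42-fold after quantile normalization, which turned to 0.11 ± 0.13 under the common median of all probes (adjusted p = 0.459).

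Cdh5, the endothelial junction gene, had 2 kept probes, and they were called in opposite directions. The brighter had raw intensities of 456, 510 and 479 on the IR arrays, against 261, 319 and 270 on the uninjured arrays. Every IR array was higher, and the normalized means were 8.41 ± 0.09 after IR and 8.10 ± 0.17 in uninjured hearts (log2, SD, n = 3 each). It rose by 0.30 ± 0.10 (SE, adjusted p = 0.0319), a 1.23-fold difference, and by 0.91 ± 0.15 under the common median of all probes (adjusted p = 9.11e-05).

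The dimmer Cdh5 probe had 190, 186 and 182 on the IR arrays, against 168, 165 and 158 on the uninjured arrays. Its raw signals were higher on every IR array. It fell by 0.43 ± 0.08 on the log2 scale after quantile normalization (SE, adjusted p = 0.00178), and turned to 0.23 ± 0.13 under the common median of all probes (adjusted p = 0.127). The mean of both probes was -0.07 (adjusted p = 0.429). Leaving out IR array 107 or 886, or uninjured array 109 or 904, also ended the call of the brighter probe. Of the 3819 genes with more than 1 kept probe, 174 (4.56%) had probes called in opposite directions.

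Emcn had raw intensities of 1189, 1152 and 1200 on the IR arrays, against 866, 869 and 795 on the uninjured arrays. Normalized, it averaged 9.90 ± 0.04 after IR and 9.86 ± 0.11 in uninjured hearts (log2, SD, n = 3 each), and the groups overlapped. Its log2 difference was 0.05 ± 0.08 (SE, adjusted p = 0.610) after quantile normalization, but it rose by 0.49 ± 0.13 under the common median of all probes (adjusted p = 0.00375), a value below that scaling's median of 0.52 over all genes.

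Within arrays, several genes moved apart from the brighter Cdh5 probe. After IR the log2 value of Tek minus Cdh5 was lower by 0.86, Notch1 minus Cdh5 by 0.80, Sox17 minus Cdh5 by 0.87 and Dll4 minus Cdh5 by 0.31, each with groups that did not overlap (exact permutation p = 0.1 each). Sox18 minus Cdh5 differed by -0.04 (exact permutation p = 0.9) and Emcn minus Cdh5 by -0.25 (exact permutation p = 0.2), both with overlapping groups. Set against the dimmer Cdh5 probe, the differences were -0.12 for Tek (exact permutation p = 0.2), -0.07 for Notch1 and -0.13 for Sox17 (p = 0.4 for both), but 0.70 for Sox18, 0.48 for Emcn and 0.43 for Dll4 (p = 0.1 for each). The size of these differences, and for Dll4, Emcn and Sox18 also their sign, thus depended on which Cdh5 probe was used.

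**Figure D3:**
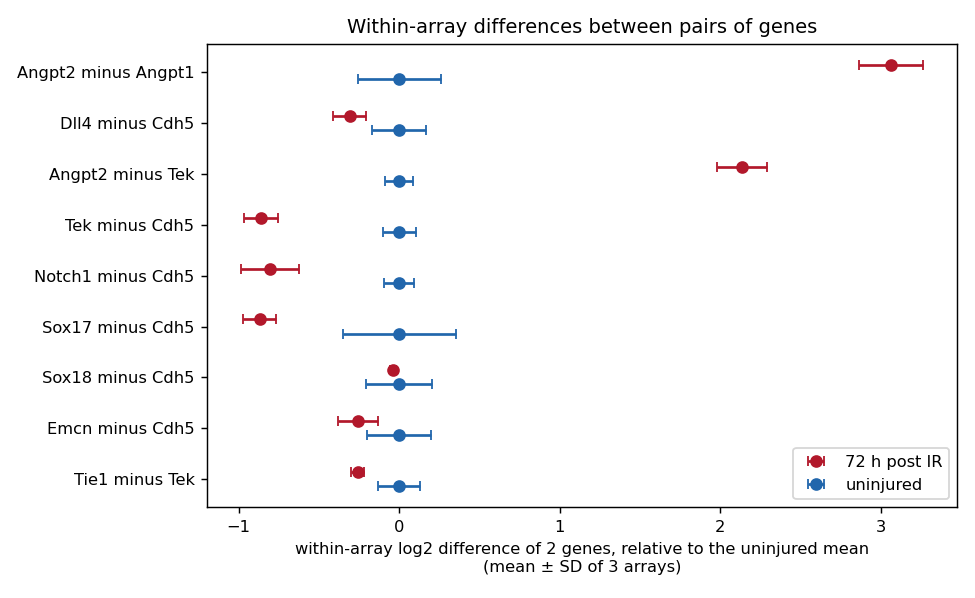
Within-array log2 difference of each of 9 gene pairs relative to its uninjured mean (horizontal axis), as the mean ± SD of 3 arrays 72 h post IR (red) and 3 uninjured arrays (blue). Angpt2 minus Angpt1 and Angpt2 minus Tek lie far to the right after IR, and Sox18 minus Cdh5 lies at -0.04.

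Of the endothelial markers Pecam1, Cdh5, Erg, Nos3, Cldn5, Egfl7 and Esam, all 7 were measured, with 1 called higher and 2 lower and a median log2 difference of -0.05, against 0.05 over all genes. Their intensities after background correction and quantile normalization were summed. This sum lay between 4497 and 4610 on the IR arrays and between 4299 and 4853 on the uninjured arrays. The groups thus overlapped under that scaling. This sum and the marker sums given below are all of quantile-normalized values and were not recomputed under the other scalings. Whether the sum would overlap under those was not tested. Esam had a log2 difference of 0.14 (adjusted p = 0.201) and Egfl7 of 0.04 (adjusted p = 0.688), both not called. These brightest markers weigh most in the sum. Another Egfl7 probe, detected on 3 of 3 arrays of each group, was called lower (-0.31, adjusted p = 0.0141). The brightest Pecam1 probe was not called (-0.05, adjusted p = 0.572). Its dimmest, detected on 1 of 3 uninjured arrays, was called higher (0.48, adjusted p = 0.00309). Under the common median of all probes 4 of the 7 were called higher and 0 lower, with a median of 0.38, and under that of the kept probes 0 higher and 4 lower. Erg was detected on 1 of 3 IR arrays and 2 of 3 uninjured arrays.

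In the wider endothelial identity list, 38 genes other than the 10 were measured, of which 5 were called higher and 21 lower, with a median log2 difference of -0.25. Those higher were led by Plvap, the protein of endothelial diaphragms, at 2.41 ± 0.14 (adjusted p = 3.24e-06), Cd93, a C-type lectin-like receptor, at 1.09 ± 0.09 (adjusted p = 2.25e-05), and the transcription factor Lyl1 at 0.85 ± 0.10 (adjusted p = 0.000171). Those lower were led by Palmd (-1.54 ± 0.07), the adhesion G protein-coupled receptor Adgrf5 (-1.50 ± 0.08) and the flow-responsive transcription factor Klf2 (-1.39 ± 0.11), each with an adjusted p of at most 1.73e-05. With the members included, the list had 6 genes higher and 23 lower of 42 after quantile normalization. It had 18 higher and 10 lower under the common median of all probes, with a median of 0.19, against 0.52 over all genes. That scaling called 59.3% of all genes higher and 17.2% lower, and quantile normalization 38.9% and 34.1%. The list median thus lay below that of all genes under both. These shares and medians are the background for each list count given here. Plvap, Cd93 and Lyl1 stayed higher under the common median of all probes, at 3.02, 1.55 and 1.32. Palmd, Adgrf5 and Klf2 stayed lower, at -1.01, -0.87 and -0.84. After quantile normalization all 10 measured macrophage markers were higher as well. The part of macrophages in the higher genes of this list was not tested.

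Genes of capillary and lipid transport endothelium were mostly lower, with 9 of 12 measured called lower, 1 higher and a median of -0.78. Timp4, a metalloproteinase inhibitor of the heart, fell by 3.59 ± 0.09 on the log2 scale (adjusted p = 1.69e-07), the transcription factor Tcf15 by 2.29 ± 0.13 (adjusted p = 2.94e-06) and the carbonic anhydrase Car4 by 2.27 ± 0.15 (adjusted p = 6.97e-06). Fabp5, a fatty acid binding protein also made by macrophages, rose by 2.92 ± 0.16 (adjusted p = 2.73e-06). Under the common median of all probes the list had 6 lower, 2 higher and a median of -0.39. Cardiomyocyte markers were lower beside these genes: 8 of 9 measured were called lower, and their summed intensity was 46883 to 49824 on the IR arrays, against 98140 to 101953 on the uninjured arrays. Their part in these values was not tested.

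Of the arterial list, 3 genes were called higher and 6 lower of 13 measured (median -0.21), whereas under the common median of all probes 6 were higher and 4 lower (median 0.17). One of the lower genes, Cxcl12 (-0.21 on its brightest probe), had 2 other probes called higher and a mean over probes of 0.97. The chemokine receptor Cxcr4 (1.75), the netrin receptor Unc5b (0.72) and the gap junction gene Gja5 (0.27) were higher, and the phosphatase Alpl (-1.15), the Notch target Hey1 (-1.13) and Stmn2 (-0.81) were lower. Of 7 venous genes, 5 were called higher and 2 lower (median 0.76). The leukocyte adhesion molecule Vcam1 rose by 2.38 ± 0.11 (adjusted p = 1.00e-06), and P-selectin (Selp), detected on 0 of 3 uninjured arrays, was at least 1.81-fold higher, the mean of the IR arrays set against, for each uninjured array, the higher of its own value and the lowest value of a detected probe. Nrp2 was higher by 0.79, and the 2 lower genes, Lrg1 (-0.42) and the ephrin receptor Ephb4 (-0.37), both turned to 0.12 under the common median of all probes.

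Tip and sprouting endothelium is a state in which Angpt2 is typically made. Of its genes, 11 of 15 measured were called higher and 0 lower, with a median of 0.83. Over all genes 38.9% were called higher and 34.1% lower. Of the 19 listed genes, Apln and Kdr were detected on no array, and Pfkfb3 and Flt4 failed the filter. Esm1 rose by 0.31 (adjusted p = 0.00538), and Adm, Pdgfb, Lama4 and Trp53i11 were not called. Latexin (Lxn) rose by 2.08 ± 0.11 (adjusted p = 1.86e-06), Cxcr4 by 1.75 ± 0.19 (adjusted p = 9.45e-05) and the urokinase receptor Plaur by 1.52 ± 0.25 (adjusted p = 0.00112). Cxcr4 and Plaur are also expressed by leukocytes, and beside them 10 of 10 macrophage markers were higher, with a summed intensity of 20011 to 22428 on the IR arrays, against 802 to 922 on the uninjured arrays. The part of these cells in the list was not tested. Under the common median of all probes 14 genes were higher, and 2 genes were called lower under that of the kept probes.

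**Figure D4:**
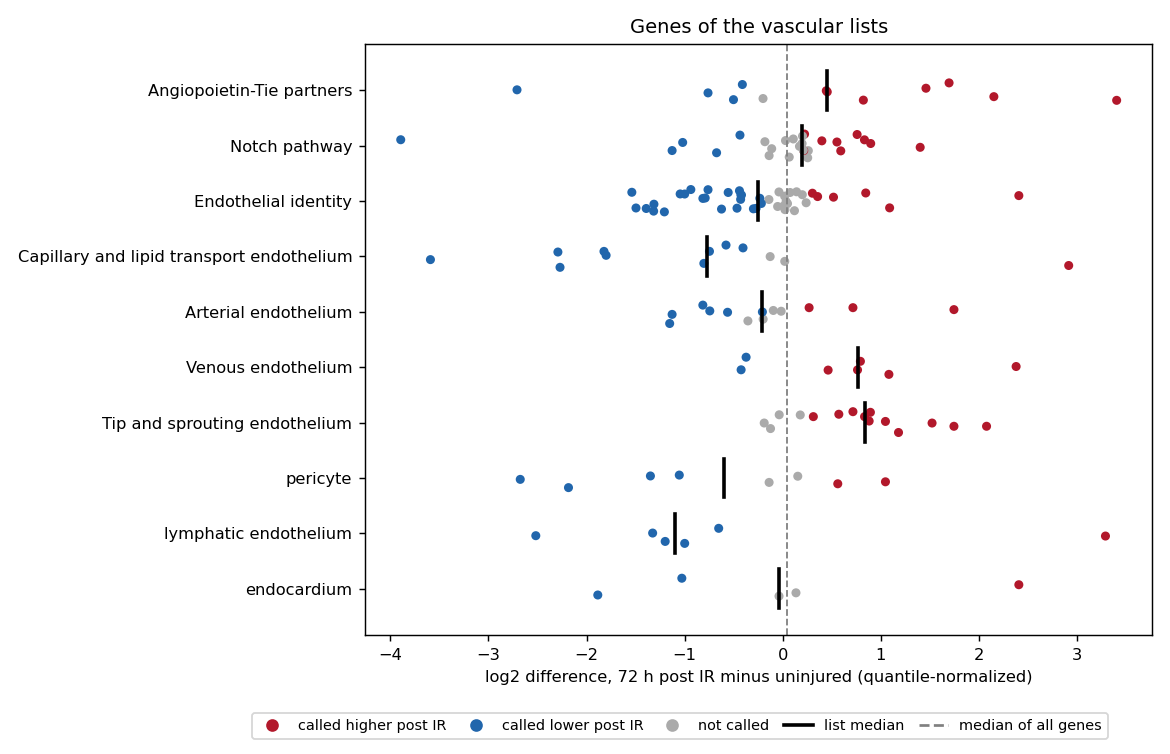
Log2 difference, 72 h post IR minus uninjured (horizontal axis, quantile-normalized), of each measured gene of 7 vascular lists and 3 marker lists, coloured by its call, with list medians in black and the median of all genes dashed. Capillary genes lie mostly to the left and tip and sprouting genes to the right, whereas the Notch and endothelial identity lists straddle 0.

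In a broad list around angiopoietins and Tie receptors, 7 of 12 measured genes were called higher and 4 lower, with a median of 0.45. Not all of its genes are established partners of these receptors, for example Angptl1, Angptl4, Ang and Ecm1. The count therefore does not describe the angiopoietin-Tie pathway alone. Angptl4, an angiopoietin-like inhibitor of lipoprotein lipase, rose by 3.41 ± 0.34 (adjusted p = 6.85e-05), the adaptor Dok2, which binds activated Tek and is abundant in myeloid cells, by 2.15 ± 0.13 (adjusted p = 5.03e-06), and the matrix protein Ecm1 by 1.70 ± 0.10 (adjusted p = 3.78e-06). The adaptor Grb14, which also binds the insulin receptor, fell by 2.71 ± 0.08 (adjusted p = 2.41e-07). Ptprb, the vascular phosphatase VE-PTP that dephosphorylates Tek, fell by 0.76 ± 0.07 (adjusted p = 3.38e-05), and the phosphatase Ptpn11 by 0.50 ± 0.07 (adjusted p = 0.000328), but under the common median of all probes both were no longer called (-0.27, adjusted p = 0.0640, and -0.21, adjusted p = 0.142). That scaling left 8 of the genes higher and 1 lower, and that gene was Grb14, at -2.14.

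Of 26 measured genes of the Notch pathway other than Dll4 and Notch1, 9 were called higher and 5 lower, with a median of 0.20. Higher genes were led by Dtx4, an E3 ligase of the Deltex family (1.40 ± 0.13, adjusted p = 4.46e-05), the sheddase Adam17 (0.90 ± 0.08, adjusted p = 4.18e-05) and the gamma-secretase subunit Psen2 (0.83 ± 0.12, adjusted p = 0.000439). Aph1a, another gamma-secretase subunit, fell by 3.89 ± 0.11 on its brightest probe (adjusted p = 2.35e-07) and by 2.36 as the mean of its kept probes. The target gene Hey1 fell by 1.13 ± 0.08 (adjusted p = 8.07e-06) and the ligand Jag2 by 1.02 ± 0.20 (adjusted p = 0.00228), with Jag2 detected on 1 of 3 IR arrays. Under the common median of all probes 19 were higher and 3 lower, and those 3 led the list downward there as well, with Aph1a at -3.44, Jag2 at -0.65 and Hey1 at -0.50. Notch2 and Rbpj were detected on 0 of 6 arrays. The same held for the endothelial genes Kdr and Fabp4, so this does not show that the transcripts were absent.

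Markers of other vascular cells also differed between the groups. Of 8 measured pericyte markers 2 were called higher and 4 lower (median -0.60), against 4 higher and 4 lower under the common median of all probes (median 0.06). After quantile normalization their summed intensity was 1010 to 1057 on the IR arrays, against 1896 to 2156 on the uninjured arrays. Rgs5, a pericyte regulator of G protein signalling, fell by 2.18 ± 0.11 (adjusted p = 1.87e-06), and Mcam rose by 1.05 ± 0.14 (adjusted p = 0.000294). Pericytes are a known source of Angpt1, and their part in its fall was not tested. Of 6 lymphatic markers 5 were called lower, among them the chemokine Ccl21a (-1.20), and 1 higher, Pdpn (3.29), which other cells also make. The lymphatic sum was 2533 to 2671 on the IR arrays, against 1199 to 1377 on the uninjured arrays, but without Pdpn it was 314 to 432 on the IR arrays, against 969 to 1169 on the uninjured arrays. Of 5 endocardial markers 1 was called higher (Plvap) and 2 lower, with Nfatc1 at 0.14 (adjusted p = 0.161), and their sum lay between 507 and 552 on the IR arrays, against 278 and 340 on the uninjured arrays. Without Plvap the sum of the other 4 was 173 to 195 on the IR arrays, against 238 to 274 on the uninjured arrays. Both sums without 1 gene were added after the values were seen.

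Platelets, which also store Angpt1, had 2 of 5 measured markers called higher and 2 lower. The higher were Pf4 (2.71 ± 0.10), a gene that macrophages make too, and Ppbp (0.56 ± 0.20). The lower were Gp9 (-0.92), detected on 0 of 3 IR arrays, and Treml1 (-0.68), detected on 1 of 3. Itga2b was not called (-0.43, adjusted p = 0.347). Fibroblast markers were higher in 7 of 8 cases, with Lum at 1.14 and Dcn at 0.01 (adjusted p = 0.941), and all 4 measured markers of dividing cells were higher, with Cdk1 at 3.46 and Birc5 at 3.42. Of 3 red cell markers 2 were lower, Hba-a1 (-0.93) and Alas2 (-1.65). The part of these cells in the values of the 10 genes was not tested. All 9 measured cardiomyocyte markers, among them Actc1 (0.04, adjusted p = 0.639) and Myl2, were detected on all 6 arrays. Myl2 was the probe of rank 1 in intensity on all 3 uninjured arrays, so quantile normalization gave it the same value on each, with an SD of 0. Its log2 difference was -0.39 there, -0.58 under the common median of all probes and -1.24 under that of the kept probes.

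Over the 6 arrays, the genes whose centred log2 values lay nearest to those of Angpt2 were Snhg5, Atad5 and Pabpc1, with root mean square differences of 0.07, 0.08 and 0.08. Nearest to Tek were Hif1an, Ndufaf2 and Dcakd, at 0.02, 0.03 and 0.03. With 6 arrays in 2 groups, this likeness mostly describes genes with a similar difference between the groups, such as Snhg5 at 1.57 and Hif1an at -0.52.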

How the data were processed

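The authors deposited probe-level summaries of 6 arrays: intensity per probe for 45281 probes and a detection p-value for each, per the file headers, from GenomeStudio 2010.3 (submitters' processing notes). The intensities carried no background subtraction or normalization, as read from their values. A deposited table of the authors' processed intensities (column medians of 88.4) ranked probes exactly as these columns did and was used as an alternative; its steps are not given in the sources used here. Signal columns name a group and an array number, not a replicate.

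Values were computed with limma 3.58.1 in R 4.3.3: neqc (normexp background from detection p-values, offset 16, quantile normalization, log2), then lmFit and eBayes on 18197 kept probes, with Benjamini-Hochberg adjustment over all of them and a threshold of 0.05. A gene took its kept probe with the highest mean (10204 genes). Genes were assigned by the platform annotation, whose symbols can be outdated and were renewed through RefSeq. Within-array differences had exact two-sided permutation tests. Genes named from each pathway list were the 3 called higher and the 3 called lower with the largest difference, and from each marker list the 2 with the highest mean. Other list genes are named where they limit a count. For Angpt2 and Tek, the 3 genes nearest by root mean square difference were named. The 10 genes, the lists and the tests were chosen with earlier results of these data known. Steps were tested on simulated data with few changed probes, as many up as down, and the same background level on every array. Such data cannot judge the scaling of arrays that differ in overall intensity. The number of arrays limits the precision.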

Additional observations from a re-analysis of the deposited data

How the results depend on the processing

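The differences of the members and named genes, the counts of calls and the 9 pairs were recomputed under 17 alternatives. Pairs with the dimmer Cdh5 probe, summed marker intensities and the likeness of genes were not. Only the common median of all probes and that of the kept probes replaced quantile normalization or the authors' own processing. The other alternatives kept one of these, so counts out of 17 say little about the choice of scaling. Angpt2 was called higher in 17 of 17 (log2 differences of 1.21 to 2.18, adjusted p of 5.65e-09 to 0.000269) and Angpt1 lower in 17 of 17 (-1.74 to -0.59, adjusted p of 2.40e-06 to 0.000490). Tek, Tie1, Sox17 and Notch1 were each called lower in 16, all but scaling to the common median of all probes, where Tek (0.041), Sox17 (0.086) and Notch1 (0.11) turned, as did Dll4 (0.14), Ephb4 (0.12), Lrg1 (0.12) and Actc1 (-0.046). Sox18 was called higher in 15 and Cdh5 in 9 (adjusted p of up to 0.0828 and 0.429). Under that scaling 1 member was lower in place of 5, 6051 genes rose and 1758 fell in place of 3974 and 3479, and the counts moved to 1 lower angiopoietin-Tie partner, 19 higher and 3 lower Notch genes, 18 higher and 10 lower endothelial identity genes, 2 higher capillary genes, 6 higher arterial genes and 0 lower venous genes (limma; 2 before). Scaling to the kept probes gave 8 lower Notch genes and 2 lower tip genes, and turned Emcn (-0.17), Actc1 (-0.71), Dcn (-0.44), Esam (-0.13) and Egfl7 (-0.28). The share of higher among called genes was 53.3%, 77.5% and 42.5% under the 3 scalings. The mean of kept probes turned Cdh5 (-0.066), Actc1 (-0.19), Egfl7 (-0.055) and, within arrays, Dll4 minus Cdh5 (0.060), Sox18 minus Cdh5 (0.33) and Emcn minus Cdh5 (0.11). Tie1 minus Tek turned to 0.0094 without background correction and to 0.014 with the authors' values, and 1 tip gene was lower without background correction. With only the 4 arrays numbered 106 to 110, 1 member was called higher, and Dll4 (0.10), Emcn (-0.013), Egfl7 (-0.0082) and Sox18 minus Cdh5 (0.016) turned. The cause of these changes was not tested.

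Leaving out each array in turn left 1 to 3 members called higher, the 1 being without IR array 107, with 5 lower each time. The tip list had 0 to 1 lower. Dll4 ranged from -0.093 to 0.055, Emcn from -0.0048 to 0.102, Sox18 minus Cdh5 from -0.157 to 0.033, Egfl7 from -0.0028 to 0.066, Dcn from -0.016 to 0.029 and Actc1 from -0.0089 to 0.082. The signal columns carry no replicate number, so the replicate block was fitted on the authors' values: 3 members were called higher and 5 lower with the block and without it, and 3922 genes rose and 3478 fell in place of 3984 and 3512. Tie1 minus Tek was 0.014 in both. Same-numbered arrays did not deviate together (r of -0.075 to -0.0048 across probes), and 0 of 6 correlated best with their own number. No pairing by number was thus seen, though so few arrays cannot exclude it. Arrays are few, and Angpt1, Dll4 and the dimmer Angpt2 probe lie near background, which limits the size of change that can be seen.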
